A study of Mus musculus with 29 samples.

Results

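Pou4f3 sites were compared between embryoid bodies (EBs) in which Pou4f3 was induced with Gfi1 (iG+P) and EBs in which it was induced with Atoh1 (iP+A). A site was a 300 bp window centred on a Pou4f3 ChIP-seq summit, and windows that shared at least 1 bp were joined. The 32632 iG+P summits and the 17082 iP+A summits gave 38104 sites, of 78408 sites over the 9 lists of the series. Of these, 11080 were shared, 21139 held only iG+P summits and 5885 held only iP+A summits. Thus 65.3% of the iP+A sites (95% exact Clopper-Pearson interval 64.6 to 66.0) and 34.4% of the iG+P sites (33.9 to 34.9) were shared. Such intervals count sites as if each were independent, which neighbours are not, and hold no replicate error.

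Pou4f3 is a POU homeodomain factor of inner ear hair cells and sensory neurons that binds AT-rich sites. Atoh1 is a proneural basic helix-loop-helix factor that binds E-boxes and is required for hair cells to form. Gfi1 is a zinc finger factor of hair cells and blood cells, known mainly as a repressor.

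Both lines were doxycycline-inducible mouse embryonic stem cells made from A2loxCre. The iG+P line carried Gfi1, Pou4f3 and Venus transgenes, and the iP+A line Pou4f3, Atoh1 and Venus, each in 1 cassette under the same inducible promoter. EBs were given 2 µg/ml doxycycline for 48 h and were collected at day 6, and Pou4f3 was precipitated from the dissociated cells through a MYC tag, with no sort of Venus-positive cells described. Each list was called by the authors on 2 merged ChIP libraries against merged inputs of the same line, so the spread between replicates is unknown and nothing was tested against it.

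The partner, the line and the place of Pou4f3 in the cassette changed together between both lists and cannot be told apart. Read totals were not given, but the peak caller's background could be worked back from the deposited fold and p-value for over 99.9% of peaks within a tolerance of 0.001. It was most often 8.14 fragments in iG+P and 7.83 in iP+A, and the lowest peak at that background had 20 fragments in each list. Of the induced genes, only Atoh1 followed the labels in every list. Its exons held a peak in each list of a line that carried Atoh1, with a fold of 6.68 in the Pou4f3 list of iP+A, and none in iG+P or in the line with Pou4f3 alone (iPou4f3). The Pou4f3 exons held a peak with a fold of 6.79 in iP+A and 4.27 in iG+P, but none in iPou4f3, and they held a peak in iAtoh1 (2.69) and iG+A (3.07), which carried no Pou4f3 transgene. The Gfi1 exons held peaks at 2.63 in iG+P, and also at 4.19 in iP+A and 3.45 in iPou4f3, which carried no Gfi1 transgene. The Pou4f3 and Gfi1 exons thus gave no check of the labels, and whether reads from the inserted copies made any of these exon peaks was not tested.

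The strongest sites of each class show what the letters under these peaks looked like. Below are 150 bases of the plus strand of mm9 around the summit, from the same assembly as the authors' alignments. Capitals mark matches to a Pou4f pattern (ATAATTAAT with at most 1 mismatch, or GCATNATT) or to an E-box core (CAGATG or CAGCTG), on either strand. The third iP+A-only site was the Atoh1 exon and is not printed.
shared, Gm13203 (chr4:148116880-148117029): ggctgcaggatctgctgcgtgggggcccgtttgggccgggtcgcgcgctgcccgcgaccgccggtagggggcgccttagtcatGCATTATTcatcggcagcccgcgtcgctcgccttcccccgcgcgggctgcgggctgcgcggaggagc
shared, Gm11574 (chr11:96912691-96912840): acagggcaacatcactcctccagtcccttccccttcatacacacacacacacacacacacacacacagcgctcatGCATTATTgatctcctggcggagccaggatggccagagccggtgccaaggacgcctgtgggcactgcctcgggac
shared, Fcho1 (chr8:74233783-74233932): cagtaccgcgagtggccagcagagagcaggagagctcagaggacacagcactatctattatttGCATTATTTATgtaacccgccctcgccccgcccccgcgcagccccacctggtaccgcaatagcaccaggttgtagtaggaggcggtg
iG+P only, Tbl1xr1 (chr3:21512970-21513119): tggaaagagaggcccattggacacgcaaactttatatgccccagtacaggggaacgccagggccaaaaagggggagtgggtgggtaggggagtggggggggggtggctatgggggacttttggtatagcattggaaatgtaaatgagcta
iG+P only, AL808020.1 (chr11:37725504-37725653): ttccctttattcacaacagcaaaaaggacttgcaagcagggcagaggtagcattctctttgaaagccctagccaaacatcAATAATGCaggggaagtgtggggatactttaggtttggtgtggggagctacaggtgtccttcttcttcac
iG+P only, SNORA17 (chr12:66478926-66479075): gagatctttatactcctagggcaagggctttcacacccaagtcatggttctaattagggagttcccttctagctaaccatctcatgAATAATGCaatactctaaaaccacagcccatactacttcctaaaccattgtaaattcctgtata
iP+A only, Auts2 (chr5:132134724-132134873): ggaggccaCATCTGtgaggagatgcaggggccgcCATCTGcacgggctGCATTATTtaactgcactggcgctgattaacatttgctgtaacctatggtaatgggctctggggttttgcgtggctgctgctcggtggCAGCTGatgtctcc
iP+A only, 1810041L15Rik (chr15:84240568-84240717): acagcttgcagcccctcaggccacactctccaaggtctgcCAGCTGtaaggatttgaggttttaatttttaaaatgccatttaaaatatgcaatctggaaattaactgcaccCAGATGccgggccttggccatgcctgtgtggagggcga

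All 3 shared sites held GCATNATT near their centre, and the Fcho1 site held both Pou4f patterns. The Gm13203 site on chromosome 4 had a fold of 69.0 in iG+P and 42.3 in iP+A. In the other Pou4f3 lists it reached 72.4 in iPou4f3 and 107 in the line with all 3 factors (iGPA), so it was high in all 4. The site near the start of Gm11574 had folds of 58.0 in iG+P and 33.2 in iP+A, and the Fcho1 site 35.6 and 19.4.

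The strongest iG+P-only site, 462529 bp from the start of Tbl1xr1, had a fold of 13.3 in iG+P and no peak in the other 3 Pou4f3 lists. It held none of the patterns, and it had Atoh1 peaks in iG+A and iGPA and a Gfi1 peak in iGPA. The sites nearest to AL808020.1 and SNORA17 had folds of 9.30 and 8.65 in iG+P. Both held GCATNATT and were also peaks in iPou4f3 (4.40 and 6.18) and iGPA (11.1 and 11.8).

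The strongest iP+A-only site lay in an intron of Auts2, a gene of neuronal development, with a fold of 9.28. It held 3 E-box cores and 1 GCATNATT and had an Atoh1 peak with a fold of 11.2 in iP+A. As a Pou4f3 peak it was absent from iPou4f3 but present in iGPA (6.84). The intronic site nearest to the start of 1810041L15Rik, 36884 bp away, had a Pou4f3 fold of 6.79 and an Atoh1 fold of 15.7 in iP+A. It held 2 E-box cores and no Pou4f pattern, and it was also a Pou4f3 peak in iPou4f3 (3.45) and iGPA (6.11). Among the 20 strongest sites of each class, 18 of the iP+A-only sites, 3 of the iG+P-only sites and 7 of the shared sites had an Atoh1 peak in iP+A.

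Exclusive sites were the weaker ones. In iG+P the median fold was 2.85 at exclusive and 3.83 at shared sites, and in iP+A it was 2.83 and 3.39. At shared sites the fold was higher in iG+P at 67.9%, by a median of 0.18 on the log2 scale. Folds of both lists had a Spearman correlation of 0.58 over the 11080 shared sites, which share a parental cell line and base composition. Class and fold come from the same peak calls, so these values describe the classes and were not tested.

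The edge of the classes was set by the window. In 242 shared sites the strongest summits of both lists were 250 bp or more apart, while the median distance was 25 bp. Just outside, 1286 iG+P-only sites (6.08%) and 825 iP+A-only sites (14.0%) had a summit of the other list under 600 bp away.

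The other lists were not used to define the classes, and they separated shared from exclusive sites. A Pou4f3 peak in iPou4f3 was found at 74.8% of shared sites, 26.9% of iG+P-only sites and 26.4% of iP+A-only sites. Shared sites were also the stronger ones, and this share rose with strength. At the same −log10 p in iG+P it was 49.9% of shared and 17.1% of iG+P-only sites under 6. At 10 to 20 it was 80.6% and 45.6%. The exclusive classes differed by -0.49 percentage points (iP+A only minus iG+P only, Newcombe interval -1.75 to 0.80), and 12 of 20 chromosomes had that sign. With only peaks of −log10 p of at least 10 in both lists, the same difference was -9.37 points. For Pou4f3 in iGPA, where all 3 factors were induced, the shares were 71.7% of shared, 25.8% of iG+P-only and 20.2% of iP+A-only sites. That difference was -5.61 points (-6.78 to -4.41), with the same sign on 20 of 20 chromosomes. When the windows were moved by 10 kb, no more than 1.85% of any class had a peak in these lists. No Pou4f3 peak in either other list was found at 60.9% of iG+P-only and 61.3% of iP+A-only sites, against 16.2% of shared sites.

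Atoh1 peaks were found more often at iP+A-only sites. In iP+A itself, 30.9% of iP+A-only sites (29.7 to 32.1) had an Atoh1 peak, against 10.9% of iG+P-only sites (10.5 to 11.4) and 23.2% of shared sites. The difference between the exclusive classes was 19.9 points (18.7 to 21.2) and ranged from 12.6 to 24.1 over the 20 chromosomes. The Atoh1 and Pou4f3 lists of iP+A came from the same line and the same inputs. In iGPA, a separate line, the shares were 25.8% and 12.0%, a difference of 13.7 points (12.6 to 15.0). Without Pou4f3 they were closer, at 16.8% and 11.0% in iAtoh1 and 17.5% and 11.5% in iG+A. The moved windows held an Atoh1 peak at 3.11% to 4.90% over all classes and lists.

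An Atoh1 peak in iP+A that was in neither iAtoh1 nor iG+A was found at 16.8% of iP+A-only sites, 4.31% of iG+P-only sites and 12.1% of shared sites. Gfi1 was measured only in iGPA, from 1 library. Its peaks were at 3.79% of iP+A-only, 1.78% of iG+P-only and 4.82% of shared sites, against 0.36% to 0.37% of moved windows. The difference between the exclusive classes was 2.01 points (1.51 to 2.55), and 18 of 20 chromosomes had that sign. That line also carried Atoh1.

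**Figure D1:**
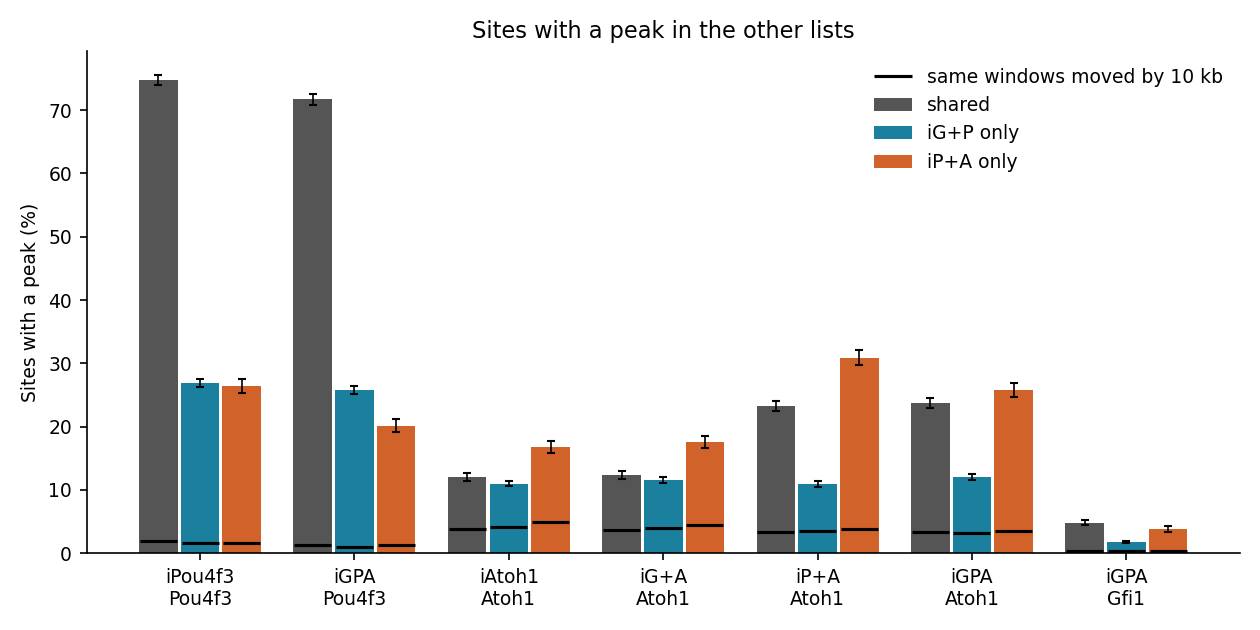
Share of shared (grey, n = 11080), iG+P-only (blue, n = 21139) and iP+A-only (orange, n = 5885) Pou4f3 sites that overlap a peak of each of the other 7 lists. Error bars are 95% exact intervals and black lines the same windows moved by 10 kb. Shared sites stand apart for Pou4f3, at over 70% against 20.2% to 26.9%, and iP+A-only sites are the highest for Atoh1 in each of the 4 Atoh1 lists.

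The sequence under the summits differed between the classes. The Pou4f pattern ATAATTAAT, with at most 1 mismatch and on both strands, was within the central 250 bp of 49.5% of shared sites, 38.2% of iG+P-only sites and 22.7% of iP+A-only sites. In windows of the same length 1000 bp away it was in 10.1% to 10.6%. The exclusive classes differed by -15.6 points (-16.8 to -14.3), with the same sign on 20 of 20 chromosomes. Without a mismatch the shares were 9.54%, 6.64% and 2.80%, against 0.42% to 0.53% of flanks. At the same strength in iG+P, weaker shared and iG+P-only sites were alike for the pattern with at most 1 mismatch. It was in 32.0% and 33.4% at −log10 p under 6, and in 39.5% and 41.3% at 6 to 8. Shared sites were higher at 10 to 20 (54.7% and 44.0%).

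GCATNATT, which was chosen after the sequences above and the enriched words had been seen and can overlap the other pattern, gave the same order. It was in 22.6% of shared, 10.5% of iG+P-only and 5.57% of iP+A-only sites, against 2.73% to 2.83% of flanks. The homeobox core TAATTA was in 22.7%, 18.1% and 11.7%, against 8.03% to 8.17% of flanks. The octamer ATGCAAAT, the site of other POU factors such as Oct4, was in 2.11% to 2.17% of each class and in 1.95% to 2.08% of flanks.

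E-boxes had the opposite order in the exclusive classes. AtEAM, the extended E-box of Atoh1, was in 4.55% of iP+A-only sites (4.04 to 5.12), 1.60% of iG+P-only sites (1.43 to 1.78) and 2.49% of shared sites, against 2.03% to 2.12% of flanks. The difference was 2.96 points (2.42 to 3.54), with the same sign on 19 of 20 chromosomes. The core CAGATG or CAGCTG was in 32.2% of iP+A-only and 23.6% of iG+P-only sites, against 25.3% and 25.4% of their flanks. Of the pair, CAGCTG was in 15.7% and 9.44% (flanks 9.59% for both classes), and CAGATG in 20.4% and 15.6% (flanks 17.4% and 17.6%). The share in iG+P-only sites was thus below that of the flanks for AtEAM and for both letters together, and above it in iP+A-only sites.

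The Gfi1 patterns AATCACAGC and AATCACTGC were in 0.59% of iP+A-only, 0.50% of iG+P-only and 0.59% of shared sites, against 0.51% to 0.54% of flanks. The exclusive classes differed by 0.093 points (-0.10 to 0.34), so no difference was detectable for these letters. With 1 mismatch allowed the difference was -1.19 points (-2.14 to -0.20), with 12.6% of iP+A-only and 13.8% of iG+P-only sites against 13.8% and 14.3% of flanks.

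**Figure D2:**
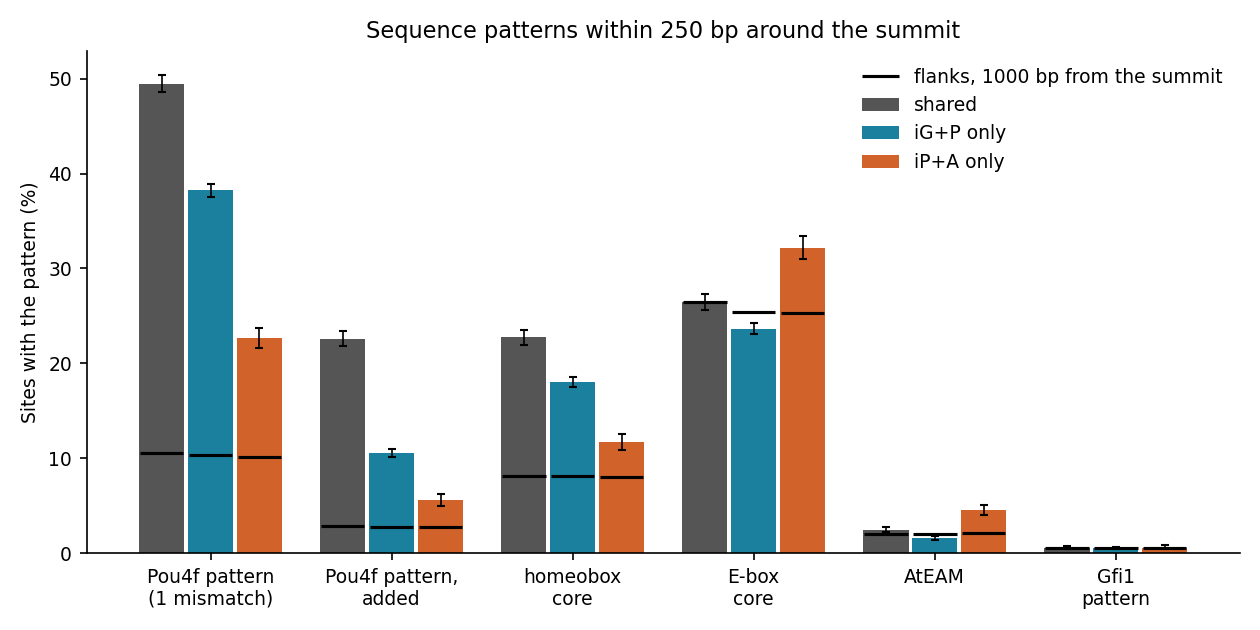
Share of sites of each class with a sequence pattern in the 250 bp around the summit, with 95% exact intervals, and in flanks of the same length 1000 bp away (black lines). Over peaks of all strengths, Pou4f patterns are ordered from shared to iG+P-only to iP+A-only sites. For ATAATTAAT with at most 1 mismatch the shares are 49.5%, 38.2% and 22.7%. The E-box core is highest in iP+A-only sites, at 32.2%.

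Pou4f matches lay near the summit in each class. The nearest one was at a median of 18.5 bp from the summit in shared sites, 23.5 bp in iG+P-only sites and 30.5 bp in iP+A-only sites, against 55.5 to 59.5 bp in flanks. E-box cores were centred in iP+A-only sites, at a median of 44 bp, with 33.5% within 25 bp (flanks 23.3%). In iG+P-only sites the median was 57 bp and 23.1% were within 25 bp, against 24.6% in flanks.

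**Figure D3:**
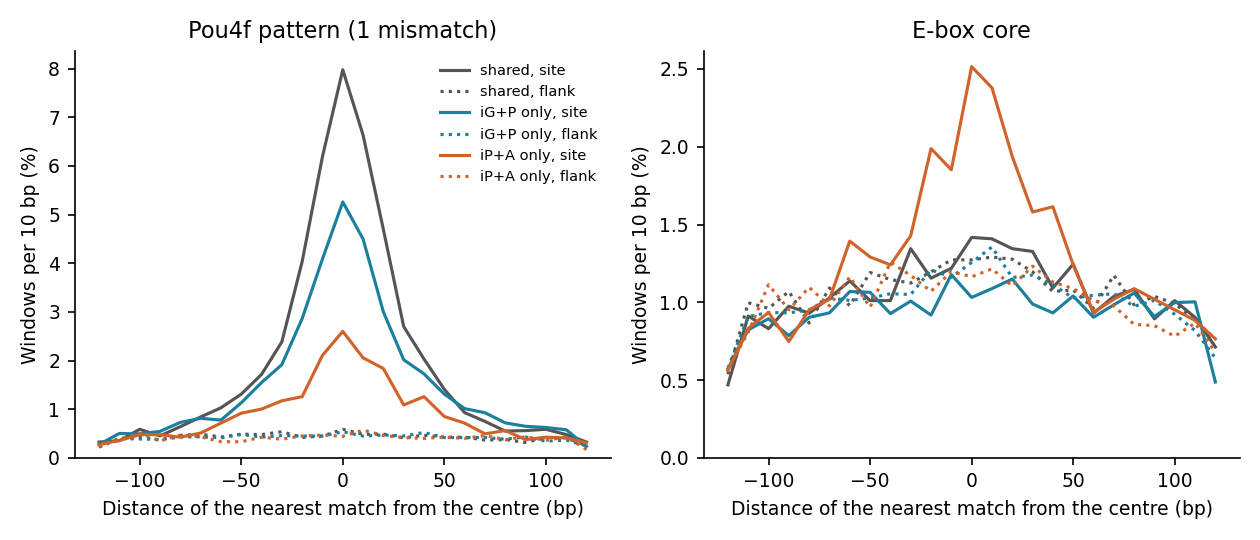
Position of the match nearest to the centre, in 10 bp bins, as a percent of all windows of each class (solid, sites; dotted, flanks), for the Pou4f pattern and the E-box core. Pou4f matches peak at the summit in all 3 classes, and E-box cores form a clear central peak in iP+A-only sites, with a median distance of 44 bp.

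The iP+A-only class held unlike groups. The 1817 iP+A-only sites with an Atoh1 peak in iP+A held AtEAM in 10.8% and an E-box core in 50.4%, and the other 4068 in 1.75% and 24.0%. The Pou4f pattern was in 18.0% and 24.7%, and it was above the flanks in both. The same split of iG+P-only sites gave AtEAM in 3.38% of the 2310 with, and 1.38% of the 18829 without, an Atoh1 peak, with the Pou4f pattern in 10.7% and 41.6%. Of the iG+P-only sites with an Atoh1 peak, 43.5% also had one in iAtoh1, and 41.7% lay in the dense stretches described below. For iP+A-only sites with an Atoh1 peak these shares were 33.1% and 25.8%.

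Strength of the peak went with these shares. From the weakest iP+A-only peaks (−log10 p under 6) to the strongest (20 or more), the share with an Atoh1 peak in iP+A went from 19.9% of 2149 to 81.0% of 42 sites, with 60.0% of 593 at 10 to 20. Over the same range the iG+P-only share went from 9.13% of 9464 to 21.2% of 372. The Pou4f pattern in iG+P-only sites was in 33.4% of the weakest, 44.0% at 10 to 20 and 33.9% of the strongest, while GCATNATT went from 7.03% to 28.5%. In iP+A-only sites the Pou4f pattern stayed between 20.9% and 31.0%, and in the strongest range the intervals of both classes overlapped. Promoters were fewer among strong peaks of either class, at 12.8% of iP+A-only (10.2 to 15.8) and 9.50% of iG+P-only sites (8.49 to 10.6) for −log10 p of 10 to 20.

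**Figure D4:**
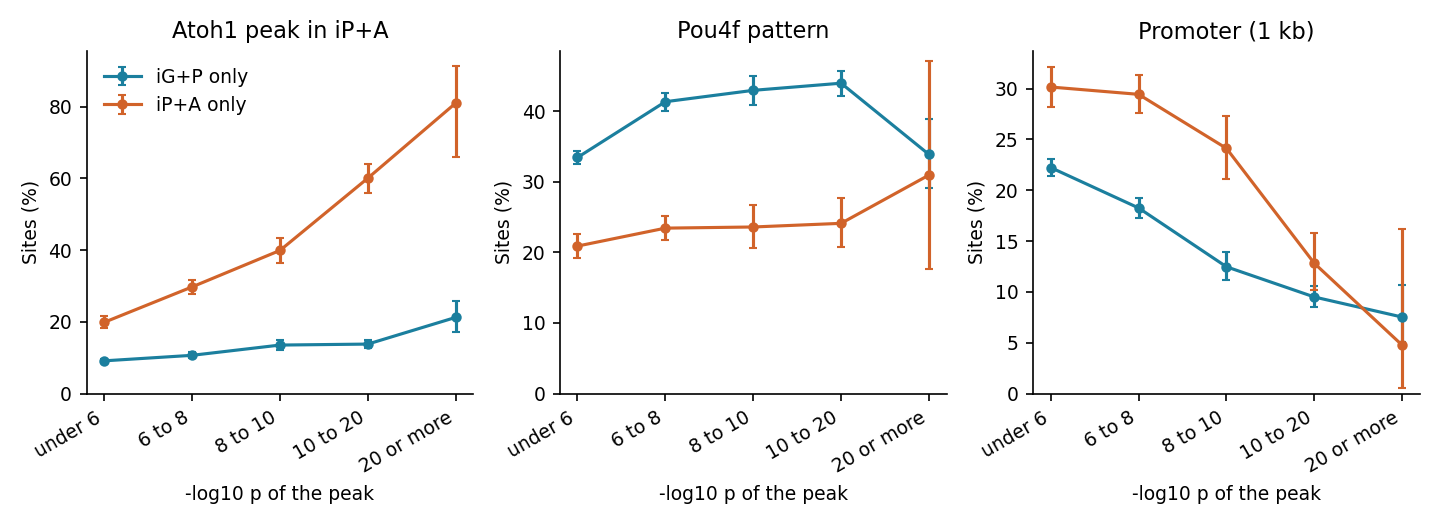
Share of exclusive sites with an Atoh1 peak in iP+A, with the Pou4f pattern, or within 1 kb of a start, by the −log10 p of their own Pou4f3 peak (iG+P only, blue; iP+A only, orange; 95% exact intervals). The Atoh1 share of iP+A-only sites reaches 81.0%, and promoters go from 30.2% to 4.76% in iP+A-only and from 22.2% to 7.53% in iG+P-only sites.

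Within 1 kb of a gene start lay 27.2% of iP+A-only sites (26.0 to 28.3), 18.0% of iG+P-only sites (17.4 to 18.5) and 17.4% of shared sites. The difference of 9.20 points (7.96 to 10.5) had the same sign on 20 of 20 chromosomes. Introns held 28.4% of iP+A-only, 36.9% of iG+P-only and 37.9% of shared sites, and 42.0% to 42.7% of each class were intergenic. Median GC content of the 250 bp was 44.8% in iP+A-only sites and 42.4% in both other classes; outside promoters it was 41.6% and 41.2%. Promoter sites of the iP+A-only class had a median GC of 69.2% and held the Pou4f pattern in 4.01%, against 64.8% and 11.1% in iG+P-only promoters.

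AtEAM was less frequent in promoter sites than in other sites of the iP+A-only class. Atoh1 peaks of iP+A were at 27.6% of iP+A-only promoter sites and 32.1% of the others. Outside promoters, AtEAM was in 5.67% of iP+A-only and 1.74% of iG+P-only sites, and in promoters in 1.56% and 0.95%. A Pou4f3 peak in iPou4f3, with no partner, was found at 42.5% of iP+A-only and 37.7% of iG+P-only promoter sites, against 20.4% and 24.5% elsewhere.

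Sites were crowded in some stretches of the genome. The median stretch of 1 Mb held 12 sites, and 35 of 2542 stretches with any site held over 5 times as many. These 35 contained 20.2% of iP+A-only, 16.5% of iG+P-only and 11.9% of shared sites, with 9 of them on chromosome 14. Without them, the difference in promoter share was 12.4 points, in the Pou4f pattern -18.8, in AtEAM 3.48 and in Atoh1 peaks of iP+A 21.1. Whether these stretches are repeated sequence was not tested.

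Genes were assigned by the nearest start. Of 22367 protein-coding genes, 34.5% had at least 1 iG+P-only site, 22.3% a shared site and 13.5% an iP+A-only site. Both exclusive kinds were near 1818 genes, and 875 genes had iP+A-only sites and no other, against 3997 with iG+P-only sites alone. The iG+P list was the longer one. With it cut to the iP+A length, there were 8420 iG+P-only and 8385 iP+A-only sites. In that run 1946 genes had iP+A-only sites alone. The genes with the most sites in a class lay in crowded stretches, with the exception of Gm20410. The prolactin-family gene Prl2c3 had 48 shared, 64 iG+P-only and 46 iP+A-only sites, and Gm10479 had 12, 48 and 23. The other leaders by the same rule were Prl2c2, Gm3667, Tmem181b-ps, Vmn2r49, Gm20410 and Cyp3a41b, with 13 to 43 sites of the class they led in. Whether reads were placed on the right gene copy there was not tested.

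Outside the crowded stretches, a choice made after the counts were seen, the iG+P-only leaders were Gm2964, Gm20410, Chi3l3, Cd244 and Defa21, with 16 to 35 sites. Among the genes with the most shared sites there, Auts2 had 10 shared, 9 iG+P-only and 2 iP+A-only sites. Among those with the most iP+A-only sites, where Gm20410 (14), Chi3l3 (12) and Gm2964 (9) led, Ebf3, a transcription factor of neuronal differentiation, had 8 iP+A-only, 4 iG+P-only and 4 shared sites.

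For the gene lists, the share of iP+A-only among exclusive sites was read against 21.9% over all exclusive sites nearest to a protein-coding gene. All 14 lists had intervals that contained that value. The highest shares were 42.9% for mesoderm and endoderm genes (9 of 21 sites, 21.8 to 66.0) and 37.9% for neuronal differentiation genes (11 of 29). The lowest were 13.3% for proneural genes (2 of 15) and 14.0% for genes of the hair bundle and mechanotransduction (6 of 43).

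The counts of genes with a site, given next for each list, stand beside the shares over all protein-coding genes (22.3% with a shared, 34.5% with an iG+P-only and 13.5% with an iP+A-only site). Over the 14 lists the shares ran from 24.0% to 71.4% for shared, from 34.8% to 85.7% for iG+P-only and from 10.5% to 57.1% for iP+A-only sites. Most lists thus lay above the background in all 3 classes. The exceptions were synapse and calcium genes (12.5%), proneural genes (10.5%) and pluripotency regulators (10.5%), which lay below it for iP+A-only sites. The lists were not matched to other genes on the distance between starts, and these differences were not tested. Some leading iG+P-only sites named below lay far from the start, as for Ferd3l (214280 bp), Syt1 (127100 bp), Nrp2 (116785 bp) and Kcnma1 (105554 bp).

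Of 24 hair cell regulators, 14 had a shared, 14 an iG+P-only and 10 an iP+A-only site (58.3%, 58.3% and 41.7%, against 22.3%, 34.5% and 13.5% of all protein-coding genes), and 4 had none. The induced genes Atoh1, Pou4f3 and Gfi1 were in this list, and each had an iP+A-only site. Whether reads from the inserted copies added to these counts was not tested. Barhl1, a homeobox gene of hair cells, had an iG+P-only site with a fold of 5.14, which was a peak in iPou4f3 (4.52) and iGPA (6.36). It lay 22891 bp from the Barhl1 start and was annotated as intronic, a label that counts the body of any gene. The exon of Pou4f3 itself was split into an iG+P-only and an iP+A-only site beside each other, with folds of 3.94 and 6.79. Nhlh1, a bHLH gene of developing neurons, had a shared promoter site at 16.3 in iG+P and 13.9 in iP+A that also carried AtEAM and an Atoh1 peak of 21.4 in iP+A.

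Among 25 genes of the bundle and transduction apparatus, 18 had iG+P-only sites (72.0%, against 34.5% of all protein-coding genes), 8 shared (32.0% against 22.3%) and 5 iP+A-only sites (20.0% against 13.5%). Fscn2, which encodes an actin-bundling protein, had the strongest iG+P-only site (5.03, and 6.18 in iPou4f3). Whrn, which encodes the scaffold protein whirlin, had the strongest iP+A-only site (3.28), with Atoh1 peaks of 7.31 in iP+A and 8.00 in iGPA. Myo6, the gene for a hair cell myosin, had a shared promoter site with folds of 9.19 in iG+P and 7.70 in iP+A.

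Of 16 genes of the synapse and calcium handling, 9 had shared, 8 iG+P-only and 2 iP+A-only sites. Kcnma1, which encodes the BK potassium channel, led the iG+P-only sites at 4.38. Calb2, which encodes calretinin, led the iP+A-only sites at 4.87, with Atoh1 peaks of 6.24 in iP+A and 9.23 in iGPA. Both exclusive Calb2 sites were of the iP+A-only class.

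In the neuronal list, 8 of 18 genes had iP+A-only (44.4%, against 13.5% of all protein-coding genes), 8 iG+P-only (44.4% against 34.5%) and 6 shared sites (33.3% against 22.3%). Gap43, a growth cone gene, had an iP+A-only promoter site at 5.09 that was also a peak in iPou4f3 (6.89) and had no Atoh1 peak. Syt1, which encodes a synaptic calcium sensor, had the strongest iG+P-only site (4.82). Of 27 sensory neuron genes, 12 had shared, 15 iG+P-only and 7 iP+A-only sites (44.4%, 55.6% and 25.9%), led by Etv1 (4.71 in iG+P) and Runx3 (3.40 in iP+A). Among 19 proneural genes the counts were 8, 9 and 2 (42.1%, 47.4% and 10.5%), led by Ferd3l (3.61) and Bhlhe22 (2.94).

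Of 25 Notch pathway genes, 6 had shared (24.0%, against 22.3% of all protein-coding genes), 18 iG+P-only (72.0% against 34.5%) and 5 iP+A-only sites (20.0% against 13.5%). The receptor gene Notch3 had the strongest iG+P-only site (6.24) and Hey2, a target gene of the pathway, the strongest iP+A-only site (3.51). All 28 axon guidance genes had a site, with 20, 24 and 16 genes in the same order (71.4%, 85.7% and 57.1%). They were led by Nrp2 (5.47) and, at the same fold of 3.28, Sema6a, Slit1 and Unc5d. LIM and POU homeobox genes had 15, 19 and 9 of 25 (60.0%, 76.0% and 36.0%), led in both exclusive classes by the Pou4f3 exon. Erg had the strongest exclusive site of both kinds among blood regulators (4.71 and 3.28), where 6, 9 and 6 of 20 genes had a site (30.0%, 45.0% and 30.0%).

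In the pluripotency list, 7, 9 and 2 of 19 genes had a site (36.8%, 47.4% and 10.5%), led by Prdm14 (4.05) and Tbx3 (3.62). The mesoderm and endoderm counts were 8, 8 and 7 of 23 (34.8%, 34.8% and 30.4%), led by Gata4 and Isl1 (both 3.72) and Snai2 (3.06). The SoxB, SoxC and Pax counts were 6, 7 and 4 of 15, led by Sox21 (5.58) and Sox4 (2.94). FGF and Wnt genes had 14, 16 and 12 of 31 (45.2%, 51.6% and 38.7%), led by Fgf20 (4.49) and, at the same fold of 3.17, Dkk1 and Fgf9.

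**Figure D5:**
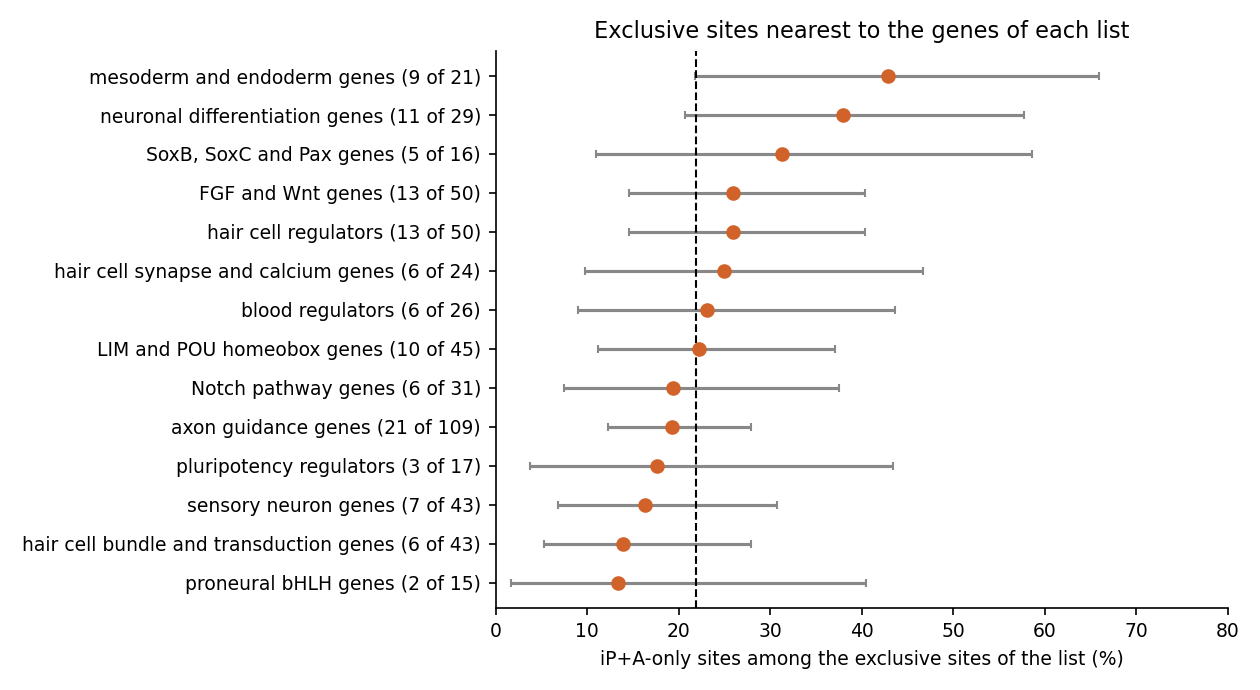
Share of iP+A-only sites among the exclusive sites nearest to the genes of each list, with 95% exact intervals and the counts in brackets. The dashed line is the share over all exclusive sites nearest to protein-coding genes, 21.9%, which lies within the interval of each of the 14 lists.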

How the data were processed

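Pou4f3 ChIP-seq of iG+P and iP+A EBs was analysed from peak lists, 2 ChIP libraries each. As the study's methods describe, reads were trimmed by the authors, aligned to mm9 with Bowtie 2, cleared of duplicates, low-quality and blacklisted reads, and used to call peaks with MACS 2 on merged replicates against merged inputs. The fold enrichment at each summit (a ratio to local background) and the −log10 p are the authors' deposited values. The summit lists name the kept peaks and carry a deposited signal column whose definition was not given; it entered no result. The filter left out 19.9% of called iG+P peaks and 31.5% of called iP+A peaks and was not stated.

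Windows were joined as described in the report. Starts (86955) and features came from GENCODE vM1 on the same assembly, and a promoter was within 1 kb of any start. A short tandem repeat was a 100 bp window in which a share of at least 0.8 of the bases equalled the base 1 unit on, for units of up to 12 bp. Intervals are exact (Clopper-Pearson) for shares and Newcombe's for differences. Python 3.11.15, pandas 2.3.3, SciPy 1.17.1, pysam 0.24.0 and samtools 1.23.1 were used, and the scripts were tested on simulated data.

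Members, lists and patterns were chosen with earlier results of these data known. Sites to be named were, per class, the 3 of highest fold outside tandem repeats (the lower fold for shared sites) on chromosomes 1 to 17, 19 and X. Named genes were the 5 protein-coding genes with the most sites per class and, for each list, those with the strongest exclusive sites. Of the strongest shared sites of the lists, only those of Nhlh1 and Myo6 were named, after their values were seen. Other windows, thresholds, list lengths, starts and pattern settings were tried as alternatives.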

Additional observations from a re-analysis of the deposited data

Results flagged for a closer look

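Peaks that the authors called but left out of their summit lists were not used for the classes, and they were found at exclusive sites. An iG+P peak that was left out lay at 11.5% of the 5885 iP+A-only sites, against 3.40% of the same windows moved by 10 kb. An iP+A peak that was left out lay at 10.8% of the 21139 iG+P-only sites, against 3.37% of moved windows. Outside the crowded stretches the shares were 6.26% and 5.44%. The filter that removed these peaks was not stated, and its part in the classes was not tested on its own. With all called peaks of every list, 16936 sites were shared, 22300 were iG+P only and 7407 were iP+A only.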

How the results depend on the processing

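The differences in promoters, AtEAM, the Pou4f pattern, Atoh1 peaks and Gfi1 peaks kept their sign under each alternative run. The iPou4f3 difference, whose interval holds 0, kept it in 7 of 10 and the Gfi1 pattern in 10 of 12. Of 100 values recomputed, 62 stayed within the interval (or 1.5 times the count) of the reported value and 38 moved. The run with the iG+P summit for shared sites could not alter the classes or the exclusive sites. Its differences and shared percent were thus fixed in advance, and only its gene count could change. The run without exons of the induced genes kept 11078 shared, 21138 iG+P-only and 5882 iP+A-only sites, so it could change little. The share of iP+A sites that were shared (65.3%) was 57.3% with windows of 100 bp, 72.1% with 1000 bp, 64.5% with full peak intervals, 72.0% at −log10 p of at least 10, 50.7% with the iG+P list as long as the iP+A list, 69.6% with all called peaks and 67.5% without crowded stretches. The promoter difference (9.20 points) was 6.72 at −log10 p of at least 10, 16.0 with lists of equal length, 6.29 within 5 kb and 12.4 without crowded stretches. The AtEAM difference (2.96) was 3.59 with windows of 1000 bp, 5.88 at the stricter threshold, 8.52 for the 6-letter core and 1.57 in 100 bp. The Pou4f difference (-15.6) was -17.3 with windows of 1000 bp, -18.2 at the stricter threshold, -16.9 with all called peaks, -3.83 without mismatch, -12.6 in 100 bp, -18.8 without crowded stretches and -4.98 for GCATNATT. The Gfi1 pattern difference (0.093) was -1.19 with 1 mismatch, where its interval (-2.14 to -0.20) lay below 0. The Atoh1 difference (19.9) was 14.3 with windows of 100 bp, 22.9 with 1000 bp, 18.4 with full intervals, 38.8 at the stricter threshold, 15.9 with lists of equal length and 16.8 with all called peaks. The Gfi1 peak difference (2.01) was 1.33, 3.27 and 4.77 with windows of 100 bp, of 1000 bp and at the stricter threshold. The iPou4f3 difference (-0.49) was -2.58 with windows of 100 bp, -9.37 at the stricter threshold, -4.77 with lists of equal length and 0.86 with all called peaks. The 875 genes with iP+A-only sites alone were 385 at the stricter threshold, where fewer peaks entered, and 1946 with lists of equal length, where fewer iG+P peaks entered. The causes of the other changes were not tested.

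The alternatives without crowded stretches, without exons of the induced genes, with the iG+P summit and with GCATNATT were chosen after seeing the data. No paired analysis was possible because the authors merged the replicates before calling peaks, and no replicate was left out for the same reason. Differences between cultures of a line have no measured size here, and depth was known only through the recovered background.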
